A study of Saccharomyces cerevisiae with 3 samples.

Results

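The genes described here are 10 genes of ammonium uptake and nitrogen catabolite repression in budding yeast, *Saccharomyces cerevisiae*. They are the ammonium carrier genes *MEP1*, *MEP2* and *MEP3*, the regulator genes *GLN3*, *GAT1*, *DAL80* and *URE2*, and the enzyme genes *GLN1*, *GDH1* and *GDH2*. They were chosen by name, as the probe sets whose annotated symbol is 1 of these names in capitals. All 10 were found, each with 1 probe set, among 5449 named *S. cerevisiae* genes on the array. Total RNA was hybridised to 3 Affymetrix arrays, which held the yeast baseline alone, 99% baseline with 1% spike, and 90% baseline with 10% spike. In all 3, per the labels' protocols, the yeast was the haploid strain W303 of mating type MAT-alpha carrying cdc15-2, a heat-sensitive form of the kinase gene *CDC15* that acts in mitotic exit. The culture was kept in minimal medium in a fermentor at 23 °C and taken 340 minutes after it had left the restrictive temperature. The nitrogen source in the medium, the nature of the spike, and whether the arrays shared 1 RNA extract are not given here. There was 1 array per group and no replicate. Differences are therefore given without an error or a test, and the small number of arrays limits their precision.

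Yeast cells use rich nitrogen sources first and keep the genes for poor ones silent, which is called nitrogen catabolite repression. In rich nitrogen the protein Ure2 holds the activator Gln3 in the cytoplasm. When nitrogen is poor, Gln3 and the related activator Gat1 enter the nucleus and switch on genes that carry GATA sequences in their promoters, and the repressors Dal80 and Gzf3 compete for the same sequences. Ammonium enters through the Mep carriers and is built into glutamate by Gdh1 and into glutamine by Gln1, whereas Gdh2 breaks glutamate down again. As the arrays carry the same kind of yeast baseline, comparing them asks how far these genes' readings differed between labelled spike shares. Whether the spike itself held RNA of these genes is not given here.

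The values are RMA values on a log2 scale, so a difference of 1 is 2-fold. Over the 10762 probe sets that are not controls, the median was 7.75 at 0% spike, 7.77 at 1% and 7.73 at 10%. All 10 genes lay above these medians, from 9.71 for *MEP1* to 13.98 for *GDH1* in the baseline array. Only 5498 of these probe sets were named as *S. cerevisiae* genes, and their baseline median was higher, at 10.81. *MEP1*, *GLN3* (9.94) and *DAL80* (10.03) lay below that *S. cerevisiae* median. Probe sets differ in how well they bind, so these levels do not rank the genes by mRNA amount. For the labelled mating type, 5 genes specific to MAT-alpha cells, among them the pheromone gene *MF(ALPHA)1*, had baseline levels of 13.75 to 14.64. For 7 genes specific to MATa cells the levels were 8.85 to 10.99, also above the median of all non-control probe sets. Of these 7, only *MFA1*, at 10.99, lay above the *S. cerevisiae* median of 10.81. Since levels of different probe sets cannot be ranked, these values do not settle the mating type. The 27 probe sets for the hybridisation controls bioB, bioC, bioD and cre had a median difference of 0.055 in 1% over baseline and of 0.51 in 10% over baseline.

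None of the 10 genes differed by 2-fold between any pair of arrays. The number past 2-fold was 0 of 10 in 10% over baseline, in 10% over 1% and in 1% over baseline. Among the 5498 *S. cerevisiae* probe sets the share past 2-fold was 0.0546% in 10% over baseline and in 10% over 1%. In 1% over baseline it was 0.0%, so a count of 0 is close to what these probe sets gave. Over all 10762 non-control probe sets, 14 were past 2-fold in 10% over baseline, 9 in 10% over 1% and 7 in 1% over baseline. At 1.5-fold the count of the 10 genes was also 0 in each comparison. The differences ran from -0.25 to 0.044 in 10% over baseline and from -0.046 to 0.021 in 1% over baseline.

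**Figure D1:**
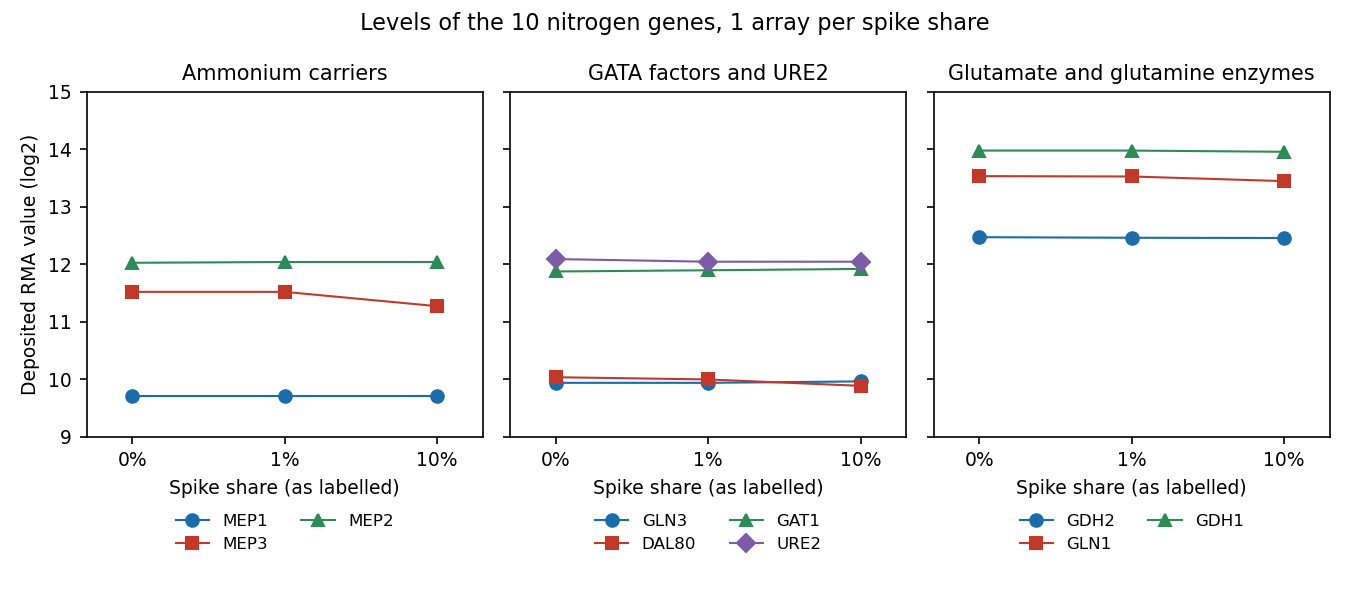
Deposited RMA values (log2, vertical axis) of the 10 genes in the 3 arrays, by labelled spike share (horizontal axis), 1 array per share and 1 line per gene. Most lines are flat. *MEP3* is at 11.52 in the baseline and 1% arrays and at 11.27 in the 10% array.

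Of the 3 ammonium carriers, *MEP3* was lower in the 10% array, whereas *MEP1* and *MEP2* hardly differed between the arrays. *MEP1* (YGR121C), a carrier of the Mep/Amt family, was at 9.71 at 0% spike, 9.71 at 1% and 9.71 at 10%, equal to the third decimal. *MEP2* (YNL142W), which encodes the carrier of highest affinity and is also needed for filamentous growth of diploid cells starved of ammonium, was at 12.03 at 0%, 12.04 at 1% and 12.04 at 10%. Both spiked arrays were thus 0.014 above the baseline array for *MEP2*. In 10% over baseline this sign turned under 3 of the 4 alternative scalings.

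*MEP3* (YPR138C), which encodes the carrier of lowest affinity, was at 11.52 at 0%, 11.52 at 1% and 11.27 at 10%. Its value at 1% was exactly that of the baseline array, and its whole difference of -0.25 lay between the 1% and the 10% array. On the linear scale the 10% array was 15.9% lower than the baseline array, a ratio of 0.841. This was the largest difference among the 10 genes, and the only one that left the central 95% of *S. cerevisiae* probe sets, which ran from -0.23 to 0.17.

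For its level the value of *MEP3* was uncommon. *MEP3* was singled out here as the largest difference of the 10 genes, so its rank is that of a picked extreme. Of the 1153 other *S. cerevisiae* probe sets whose mean level lay within 0.5 of it, 95% had differences between -0.11 and 0.18 in 10% over baseline. Only 1 of them was as low or lower, *DNF2* at -0.35, which encodes a phospholipid flippase. Over all levels, 114 other probe sets (2.07%) were as low or lower. Set against the share of 3.0% of *S. cerevisiae* probe sets lower by 0.2 or more, 1 of the 10 genes was past that mark. The difference stayed between -0.28 and -0.23 under the 4 alternative scalings. With 1 array at 10% spike, whether it would recur cannot be seen. The hybridisation controls were higher in the same array (median 0.51, 27 of 27 higher), and their part in the result was not tested. By its label the 10% array held 90% baseline, and log2 of 0.90 is -0.152. The median difference over all *S. cerevisiae* probe sets was 0 in 10% over baseline. Since RMA equalises the arrays' distributions, this median cannot show a shift common to most probe sets. The part of the lower baseline share in the value of *MEP3* was not tested. Whether the arrays shared 1 RNA extract is not given, so the difference cannot be read as a change in the cells.

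**Figure D2:**
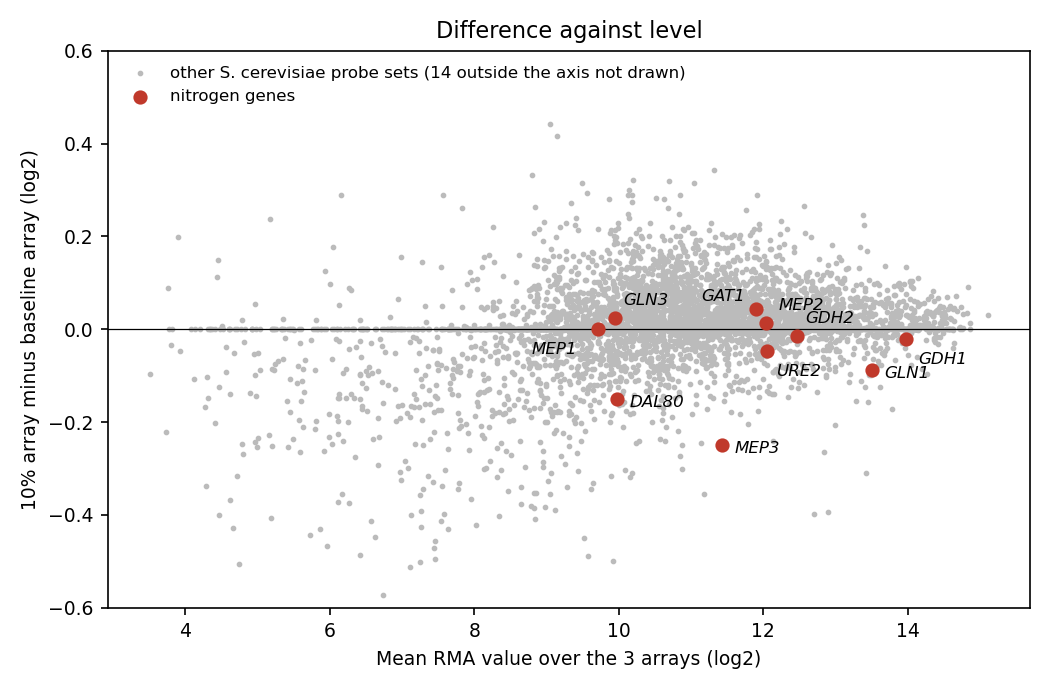
Difference between the 10% and the baseline array (log2, vertical axis) against the mean RMA value over the 3 arrays (log2, horizontal axis), with the 10 nitrogen genes in red, the other *S. cerevisiae* probe sets in grey, and 14 probe sets beyond 0.6 in either direction not drawn. *MEP3* at -0.25 lies below nearly all probe sets of its level, whereas *DAL80* at -0.15 lies at the lower edge.

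The genes next to *MEP3* did not show the same difference. By their order in the RefSeq gene table, the nearest genes with a probe set were *RRP9*, for a protein of the small-subunit processome, and *LOA1*, for a lysophosphatidic acid acyltransferase. Both were exactly equal in all 3 arrays, *RRP9* at 11.37 and *LOA1* at 11.05. The 20 nearest measured neighbours of the 10 genes had differences of -0.20 to 0.21 in 10% over baseline, with a median of 0. Of these, 6 were lower, 7 higher and 7 equal, beside 27.2% lower, 45.1% higher and 27.7% equal over all *S. cerevisiae* probe sets. By the distance over the differences of both spiked arrays from the baseline array, among the 1153 probe sets of similar level, *OAZ1*, which encodes ornithine decarboxylase antizyme, was nearest to *MEP3*. It was at 11.20 at 0%, 11.24 at 1% and 10.96 at 10% (distance 0.035). *NOP4* and *EMC3* followed at distances of 0.044 and 0.067, with 10% over baseline differences of -0.20 (*NOP4*) and -0.18 (*EMC3*). The likeness rests on 3 arrays.

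Among the regulators, the largest difference was that of *DAL80* (YKR034W), the GATA-type repressor. It was at 10.03 at 0%, 10.00 at 1% and 9.88 at 10%. Each array was lower than the one with less spike, by 0.039 and then 0.11. The 10% over baseline difference of -0.15 is 9.87% lower on the linear scale and lay inside the central 95% of all *S. cerevisiae* probe sets. Of the 1186 other probe sets of similar level, 36 (3.04%) were as low or lower. The nearest measured neighbour on one side, *DID2*, was at -0.14 in the same comparison, and *SPO14* on the other side at 0.018.

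The activator genes differed less. *GLN3* (YER040W), for the main GATA activator, was at 9.94 at 0%, 9.94 at 1% and 9.96 at 10%. *GAT1* (YFL021W), for the activator whose own gene is a nitrogen-regulated target, was at 11.88 at 0%, 11.90 at 1% and 11.92 at 10%. The 10% over baseline differences were 0.025 for *GLN3*, which was -0.001 with arrays centred on *S. cerevisiae* probe sets, and 0.044 for *GAT1*, which was above 0 under all 4 alternative scalings. About *GAT1*, 30.7% of 987 probe sets of similar level were as high or higher, so the value was a common one.

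*URE2* (YNL229C), for the protein that retains Gln3, was at 12.09 at 0%, 12.05 at 1% and 12.05 at 10%. Its difference of -0.046 was already complete in the 1% array, unlike those of *MEP3* and *DAL80*. It was the lowest difference of the 10 genes in 1% over baseline, where the central 95% of *S. cerevisiae* probe sets ran from -0.064 to 0.066.

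**Figure D3:**
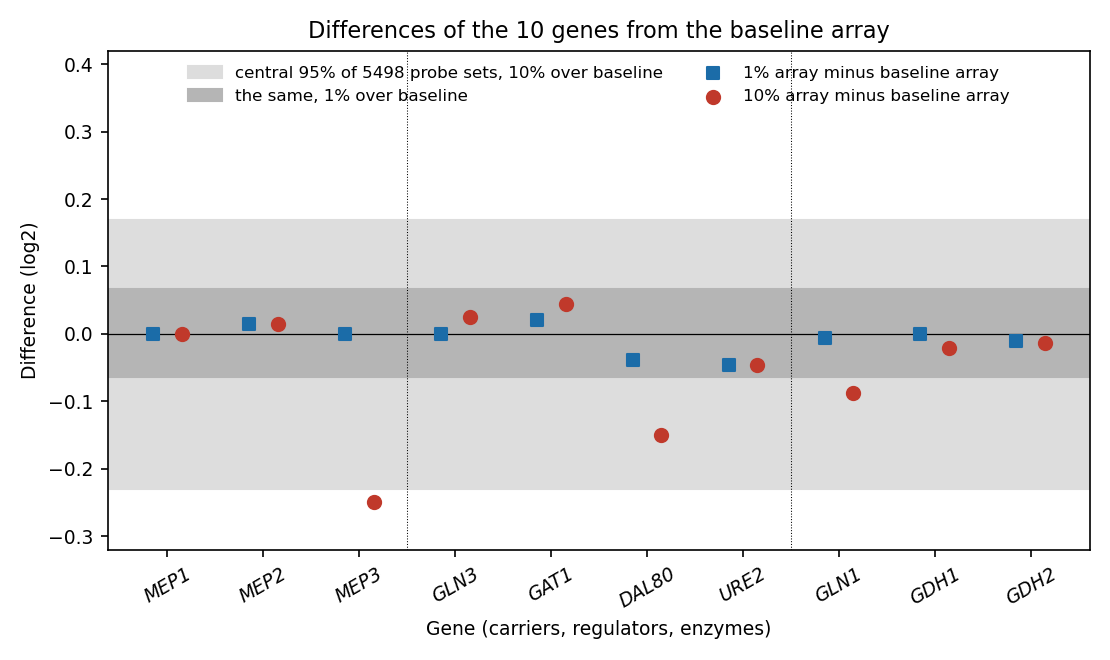
Differences from the baseline array (log2, vertical axis) for the 1% array (squares) and the 10% array (circles), by gene. The grey bands hold the central 95% of the 5498 *S. cerevisiae* probe sets in each comparison, and 1 point, *MEP3* in the 10% array at -0.25, lies outside its band.

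The 3 enzyme genes differed little between the arrays. *GLN1* (YPR035W), for glutamine synthetase, was at 13.54 at 0%, 13.53 at 1% and 13.45 at 10%. *GDH1* (YOR375C), for the NADP-dependent glutamate dehydrogenase that makes glutamate from ammonium, was at 13.98 at 0%, 13.98 at 1% and 13.96 at 10%. *GDH2* (YDL215C), for the NAD-dependent enzyme that degrades glutamate, was at 12.47 at 0%, 12.46 at 1% and 12.46 at 10%.

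The 10% over baseline difference was -0.087 for *GLN1*, or 5.85% lower on the linear scale. It was -0.021 for *GDH1* and -0.014 for *GDH2*, the sign of which turned to 0.005 with arrays centred on all non-control probe sets. At the level of *GLN1* the spread was narrow, with 95% of 399 other probe sets between -0.096 and 0.13, and 11 of them (2.76%) were as low or lower. *GDH3*, the paralog of *GDH1* that encodes a second NADP-dependent enzyme, was at 8.82 in all 3 arrays, equal to the third decimal. All 10 probe set IDs carry the plain suffix of probe sets meant for 1 transcript; cross-binding between such paralogs was not analysed here, since no probe sequences were used.

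In direction, 6 of the 10 genes were lower in the 10% array than in the baseline array, 3 were higher and 1 was equal. Over all *S. cerevisiae* probe sets 27.2% were lower, 45.1% higher and 27.7% equal. The median difference of the 10 genes was -0.018, against 0 over all *S. cerevisiae* probe sets. Both the count and the median rest on very small values. With arrays centred on all non-control probe sets, 5 of the 10 were lower, beside 21.4% of all *S. cerevisiae* probe sets. After quantile normalisation over again 8 of the 10 were lower, beside 60.0% of all. With arrays centred on *S. cerevisiae* probe sets 9 were lower, beside 67.5%, and with the loess trend removed 8, beside 55.7%. The median of the 10 genes ran from -0.0435 to 0.001 over these scalings. Under each of the 4 alternative scalings *MEP3*, *DAL80*, *URE2*, *GLN1* and *GDH1* stayed lower, whereas the sign of *MEP1*, *MEP2*, *GLN3* and *GDH2* depended on the scaling.

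In 1% over baseline 4 genes were lower, 2 higher and 4 exactly equal, with a median of 0. The shares over all *S. cerevisiae* probe sets were 14.5% lower, 22.6% higher and 62.9% equal. *MEP1* alone was equal in all 3 arrays, beside 25.9% of all *S. cerevisiae* probe sets. With all genes 0.029 lower, as centring on all non-control probe sets makes them, all 10 were lower, as were 90.1% of all *S. cerevisiae* probe sets. In the values as deposited *DAL80*, *GLN1* and *GDH2* were lower at each step of spike share, 3 of 10 beside 7.13% of all. *GAT1* was higher at each step, 1 of 10 beside 14.8% of all. With 3 arrays the RMA summary can return equal values, and 2 steps in 1 direction are no trend with an error.

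Genes for the use of poor nitrogen sources were next read as a group. Whether the regulators above act on each of them was not tested. Of 26 listed permease and enzyme genes for poor nitrogen sources, 22 had a probe set. None was past 2-fold in 10% over baseline, 7 were lower, 12 higher and 3 equal, with a median of 0.0035, beside 27.2% lower, 45.1% higher and 27.7% equal over all *S. cerevisiae* probe sets. Signs of values this small, here and in the lists that follow, depend on the scaling, since the centrings moved all genes by -0.026 and by 0.018. *DAL1*, for allantoinase, had the largest difference, at 8.40 at 0%, 8.25 at 1% and 8.22 at 10%, or -0.18. *DAL5*, for the allantoate permease, was at -0.10 and *DAL3*, for ureidoglycolate lyase, at 0.092. *UGA1* and *UGA2*, for enzymes that degrade 4-aminobutyrate, lay near the list's median at 0.002 and 0.005. The general amino acid permease gene *GAP1*, at 13.36, and the proline permease gene *PUT4*, at 11.26, were equal in all 3 arrays. The ID of the probe set for the asparaginase gene *ASP3-1* marks it as shared by several transcripts, so near-identical copies may add to its signal.

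Of these, 6 genes of allantoin use lie next to each other without a gap in the RefSeq gene table, in the order *DAL1*, *DAL4*, *DAL2*, *DCG1*, *DAL7* and *DAL3*. Their 10% over baseline differences did not go 1 way along the run. They were -0.18 for *DAL1*, 0 for *DAL4*, -0.030 for *DAL2*, 0.063 for *DCG1*, 0.008 for *DAL7* and 0.092 for *DAL3*.

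**Figure D4:**
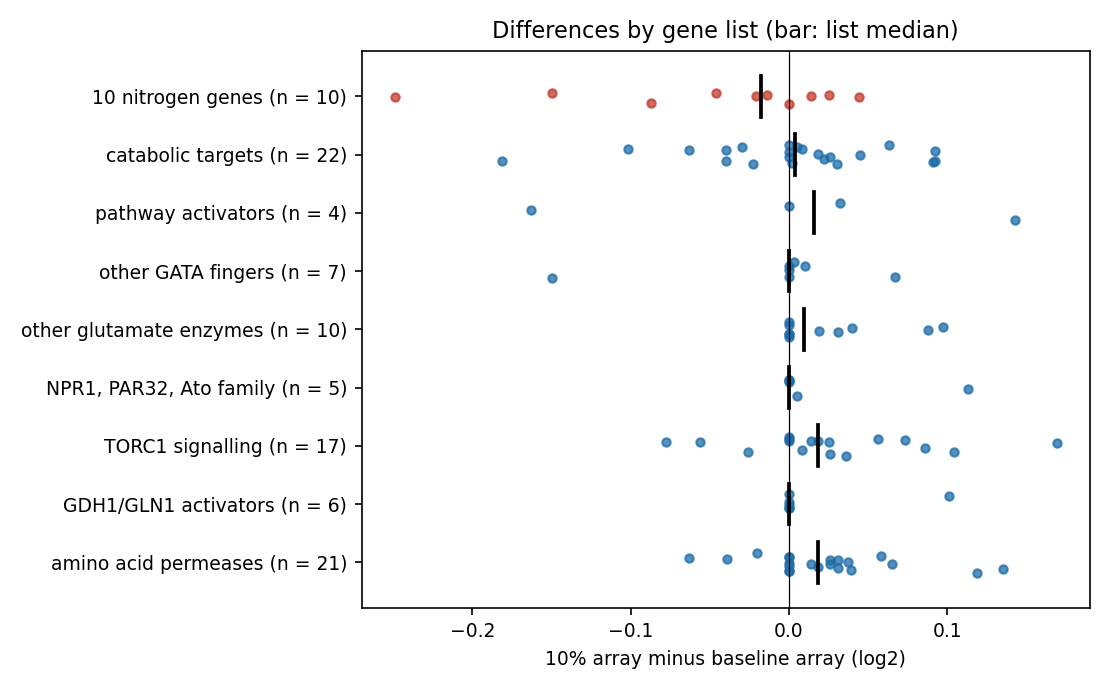
Differences between the 10% and the baseline array (log2, horizontal axis) for each measured gene of 9 lists (rows), with a bar at each list's median. The 10 nitrogen genes span -0.25 to 0.044, and no gene of the lists reaches 2-fold.

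The pathway-specific activators lay on both sides. *DAL81*, which acts with inducers of several nitrogen pathways, was at 0.14 in 10% over baseline, *UGA3*, the activator for 4-aminobutyrate use, at -0.16, *DAL82* at 0.032 and the proline activator *PUT3* at 0. Among 7 other genes with a GATA-type zinc finger, *ECM23* was at -0.15, *ASH1*, the daughter-cell repressor of mating-type switching, at 0.067, and *SRD1* at 0.010. *GAT2* and *GAT3* had a difference of 0. *GZF3*, the repressor most like *DAL80*, was at 0.003, with levels of 9.50 at 0%, 9.50 at 1% and 9.50 at 10%. The difference of *DAL80* in the same comparison was -0.15.

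Of 10 other enzymes around glutamate, asparagine and 2-oxoglutarate, 5 were higher in 10% over baseline, 5 equal and 0 lower, with a median of 0.0095. The shares over all *S. cerevisiae* probe sets were 45.1% higher, 27.7% equal and 27.2% lower. *IDP2* and *IDP1*, for isocitrate dehydrogenases that use NADP, were at 0.097 and 0.088, and *GLT1*, for glutamate synthase, at 0.040. *ASN1*, for asparagine synthetase, and *GAD1*, for glutamate decarboxylase, were at 0. Of 6 activators known to act on *GDH1* or *GLN1*, 5 were equal in all 3 arrays, beside 25.9% of all *S. cerevisiae* probe sets. Equal values can come from the RMA summary. Among the 5 were *GCN4* at 14.12 and *HAP2* at 10.28, and *LEU3* had a 10% over baseline difference of 0.10.

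Genes for regulators of the carriers, and for other ammonium transporters, lay at 0 or slightly above. *NPR1*, for the kinase that keeps the Mep carriers active, was at 11.72 in all 3 arrays. *PAR32*, for a protein that inhibits Mep1 and Mep3, was at 11.93 at 0%, 11.93 at 1% and 12.04 at 10%, a difference of 0.11. In the Ato family of acetate and ammonium transport, *ADY2* and *ATO2* were at 0 and *ATO3* at 0.005. A list of 17 genes held subunits of TORC1, the kinase complex that signals nitrogen quality to Gln3, with its upstream regulators and downstream effectors. Of these 17 genes, 11 were higher, 3 lower and 3 equal, with a median of 0.018, beside 45.1% higher over all *S. cerevisiae* probe sets. *MEH1*, which anchors the Gtr GTPases at the vacuole, was at 0.17, *LST8* at 0.10 and the phosphatase gene *SIT4* at 0.086, and *TIP41* and *TCO89* lay near the median at 0.018 and 0.014.

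Amino acid permease genes, the other large set of nitrogen carriers, were taken as a comparison. The median 10% over baseline difference was -0.018 for the 10 nitrogen genes and 0.018 for the 21 permease genes, of which 12 were higher, 3 lower and 6 equal. Over all *S. cerevisiae* probe sets 45.1% were higher, 27.2% lower and 27.7% equal. *MUP3*, for a low-affinity methionine permease, was at 0.14, *HIP1*, for the histidine permease, at 0.12 and *BAP2* at 0.065, while *AGP1* and *BAP3* lay near the median at 0.018 and 0.014. The lowest permease difference was -0.063, so *MEP3*, *DAL80* and *GLN1* lay below all 21. With 1 array per group the difference between the lists could not be tested. Several genes stand in both this list and the list of poor nitrogen sources.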

How the data were processed

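The deposited table gives a log2 value for each of 10928 probe sets on each array. The submitters' processing notes name RMA, by which the authors correct background, equalise the arrays' distributions and summarise probes; its version and the probes' genome build are not given. The log2 scale is inferred from RMA's usual output and from the range of the values. Such equalisation hides a shift common to most RNA. The 166 control probe sets (IDs starting with AFFX) were left out of all counts. Symbols came from the platform annotation, updated through gene identifiers to the RefSeq table of *S. cerevisiae* assembly R64, which named 5498 probe sets. Differences of log2 values were rounded to 3 decimals with pandas 2.3.3. The step was run on baseline values with known changes added and no noise, which checks the arithmetic only. Within lists, the 3 largest absolute 10% over baseline differences and the 2 values nearest the median are named, plus *GDH3* and *GZF3*; for likeness, the 3 nearest genes; *DNF2*, neighbouring genes, *GAP1*, *PUT4*, *NPR1* and the run of *DAL* genes were added after their values were seen. Members and lists were chosen with earlier results of these data known. Alternatives were quantile normalisation, 2 centrings, a loess trend on level, 1.5-fold, the brightest probe set and a filter on low values.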

Additional observations from a re-analysis of the deposited data

How the results depend on the processing

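The median difference of the 10 genes ran from -0.0435 to 0.001 in 10% over baseline, from -0.022 to 0.045 in 10% over 1% and from -0.029 to 0 in 1% over baseline, over the alternatives, each shift smaller than 0.102, 0.089 and 0.033, the SD that would give the central 95% of *S. cerevisiae* probe sets in these comparisons. The number past 2-fold stayed 0 in each comparison under all alternatives run. The number of genes higher in 10% over baseline, 3 as deposited, was 5 with arrays centred on all non-control probe sets and 1 with arrays centred on *S. cerevisiae* probe sets; these centrings added 0.018 and -0.026 to every gene. The brightest probe set and the filter on low values changed nothing, since each gene has 1 probe set and all 10 lie above the lower quartile. The counts of higher and lower genes were added as results after the data were seen. No replicate could be left out, and no paired analysis was possible because each group is 1 array. All 10 genes lie above the median signal of all non-control probe sets. In the baseline array *MEP1*, *GLN3* and *DAL80* lie below the median of the *S. cerevisiae* probe sets. Binding between paralogs and saturation of bright probe sets were not tested.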

Other observations

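The array also carries 5 probe sets whose symbols are spelled in lower case like a nitrogen gene. Their organism is not given by the symbol, and they lay below the median of all probe sets in the baseline array. The probe set named gdh1 was at 7.26 at 0%, 7.30 at 1% and 7.07 at 10%, a 10% over baseline difference of -0.19. The one named ure2 was at 4.92 at 0%, 4.90 at 1% and 5.06 at 10%, and the one named amt1 at 5.03, 5.03 and 5.19. Those named gln1 and gdh2 were equal in all 3 arrays, at 5.66 and 4.45. None was past 2-fold.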
